A study of Mus musculus with 2 samples.

Results

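S100a4, S100a6, S100a8, S100a9, S100a10 and S100a11, members of the S100 family of calcium-binding proteins, were followed across the leukocytes of tumour-bearing mouse lungs. They were chosen by name and make up 6 of the 16184 genes in the data, where 12 genes with an S100 symbol have a column. S100 proteins are small EF-hand proteins that change shape when they bind calcium and then attach to partner proteins. S100a8 and S100a9 pair to form calprotectin, which fills the neutrophil cytosol, binds zinc and manganese, hands arachidonic acid to the NADPH oxidase and, once released, is read by Toll-like receptor 4 as an alarm signal. S100a10 pairs with annexin A2 at the plasma membrane, S100a11 with annexin A1, S100a4 binds non-muscle myosin, and S100a6 binds the calcyclin-binding protein Cacybp.

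The mice were Scgb1a1cre/iDTR animals, in which a Cre driven by the club cell gene Scgb1a1 switches on a diphtheria toxin receptor, and all had been given HKP1 lung tumour cells by tail vein. The DT group received 2 doses of diphtheria toxin at 600 ng per 20 g, on days 8 and 9, and the control group received PBS. Both groups received 4 Gy radiation by the design text, given on each of 3 days, days 10 to 12, by the treatment protocol. That protocol also lists tamoxifen (2 mg per 20 g on 5 days, days 3 to 7) and 250 µg of anti-PD-1 antibody on day 6, without saying which groups received them. Live CD45+ cells were sorted from 4 mice per group, 24 to 48 h after radiation by the time label and on the day after it by the protocol, and were sequenced as 10x Genomics 3′ libraries, 1 library per group. Which cell came from which mouse is not labelled, so nothing measures the spread between mice, no test between DT and PBS was possible, and every interval below is a 95% interval of counting error only. Scgb1a1 itself, which B cells should lack, gave 2 molecules in the B cells of DT and 285 in those of PBS. The CD45+ sort is not meant to collect club cells, so that this is no measure of their depletion.

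The DT library held 6203 cells and 27896059 unique molecules (UMIs, each counted once however often it was amplified), and the PBS library held 5702 cells and 31089434 UMIs, with a median of 2909 UMIs per cell in DT and 3719 in PBS. After filtering, 5896 DT cells and 5651 PBS cells were kept, and 8 barcodes occurred in both libraries. Cells were placed in gates by at least 1 UMI of a defining gene. Csf3r with Retnlg stands for neutrophils, Csf1r for monocytes and other mononuclear cells, C1qa for macrophages, Treml4 for nonclassical monocytes, Cd3e for T cells, Cd79a for B cells and Ncr1 for NK cells, and each gate held other markers of its cell type. Cells that met more than 1 of the neutrophil, mononuclear, T, B and NK definitions were set aside as mixed, 668 in DT and 708 in PBS. The 2 libraries also differed in the sex of their cells, called from Xist and Y-linked genes: 85.1% of the called cells in the neutrophil gate were male in DT and 97.5% in PBS, whereas the T cell gate had 17.2% in DT and 88.8% in PBS. Only part of the cells could be called: 114 male and 20 female of 598 DT neutrophils, and 118 and 3 of 411 PBS neutrophils. In the T cell gate, 105 were called male and 507 female of 1003 in DT, and 555 and 70 of 1066 in PBS. The sex composition of the called cells therefore moves with the groups, and that of the remaining cells is not known. In male-called cells, 2 of the 9 ratios of a member in a gate or in Foxp3 T cells that were past the 1.5-fold rule below remained so, and 17 others passed it. The share of all tested genes past it was higher there too. It was 7.69% in male-called macrophages against 2.04% in all macrophages, and 8.26% in male-called T cells against 1.49% in all T cells. For male-called cells of the other gates it was not computed. Values by sex call stand beside the results of neutrophils, macrophages, T cells and B cells.

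All 6 genes lie on mouse chromosome 3 (GRCm38). S100a4 (90603771 to 90606045), S100a6 (90612882 to 90624181), S100a8 (90668978 to 90670035) and S100a9 (90692632 to 90695721, minus strand) sit within 92 kb, while S100a11 (93520488 to 93526287) and S100a10 (93555080 to 93564643) form a second block of 44.2 kb. Promoters are shown for S100a8 and S100a9, whose levels ran together over all gates, and for S100a6, their neighbour, whose pattern was broader. Each line covers 250 bases before and 20 bases from the RefSeq start site (GRCm38.p6), 5′ to 3′ on the gene's own strand. The windows are chr3:90668821-90669090 (plus) for S100a8, chr3:90695702-90695971 (minus) for S100a9 and chr3:90612644-90612913 (plus) for S100a6, and capitals mark the letters TTNCNNAA of the C/EBP motif on either strand and TATAAA on the printed strand.
S100a8: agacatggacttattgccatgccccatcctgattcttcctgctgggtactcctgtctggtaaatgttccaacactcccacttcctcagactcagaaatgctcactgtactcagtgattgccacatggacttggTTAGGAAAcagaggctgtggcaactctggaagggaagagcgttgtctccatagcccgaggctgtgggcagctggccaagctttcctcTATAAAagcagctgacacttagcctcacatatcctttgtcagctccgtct
S100a9: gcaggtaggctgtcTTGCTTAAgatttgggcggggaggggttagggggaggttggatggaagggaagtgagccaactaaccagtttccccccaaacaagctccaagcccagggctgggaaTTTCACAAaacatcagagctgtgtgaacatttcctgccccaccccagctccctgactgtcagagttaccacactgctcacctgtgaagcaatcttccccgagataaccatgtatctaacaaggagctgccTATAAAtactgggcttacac
S100a6: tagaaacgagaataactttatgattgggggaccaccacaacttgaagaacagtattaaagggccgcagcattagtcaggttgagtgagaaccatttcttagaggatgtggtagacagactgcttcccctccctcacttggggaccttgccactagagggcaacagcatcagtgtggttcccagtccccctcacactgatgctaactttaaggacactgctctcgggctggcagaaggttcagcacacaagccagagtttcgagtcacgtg

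S100a8 held 1 C/EBP match, at -117 from the start site, and a TATA box at -30. S100a9 held 2 C/EBP matches, at -236 and -130, and TATAAA beginning at the annotated start base itself. S100a6 held neither motif in this window. C/EBP proteins are the transcription factors best known for switching on granulocyte genes, but the letters are common: 40.68% of 32851 mouse promoters of 300 bases hold the C/EBP motif and 8.32% hold TATAAA. A match is a description of the sequence, and the absence of one says only that these letters are not in the window. RefSeq promoters were matched for 5 of the 6 genes, all but S100a10.

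Levels below are CPM, the UMIs of a gene scaled to a common total of all UMIs in a gate, and are compared within a gene only, because 3′ counts are not scaled to length. S100a8 and S100a9, the calprotectin genes, were neutrophil genes above all. S100a8 stood at 48374 CPM in DT neutrophils and 56797 CPM in PBS neutrophils, and S100a9 at 59526 CPM in DT and 71771 CPM in PBS. Together they supplied 10.8% of all neutrophil UMIs in DT and 12.9% in PBS. Within neutrophils the share was wide, with a 5th to 95th percentile from 1.37% to 23.4% of a cell's UMIs in DT and 1.91% to 24.6% in PBS. The next gate for S100a8 was 26.2 times lower in DT, where it was the Treml4 gate, and 113 times lower in PBS, where it was the Csf1r gate. Csf1r cells had 651 CPM of S100a8 in DT and 504 CPM in PBS, and C1qa cells 273 CPM in DT and 221 CPM in PBS. Few cells carried these molecules, and the median cell of the 6 gates other than neutrophils had no UMI of either gene. Of Csf1r cells, 28 of 481 in DT held 1628 of 1966 S100a8 UMIs and 15 of 395 in PBS held 1118 of 1483, and 27 of those 28 and 13 of those 15 carried Hdc, a neutrophil gene. Of C1qa cells, 7 of 446 in DT held 866 of 1064 S100a8 UMIs and 7 of 332 in PBS held 514 of 671, and C1qa cells with no Csf3r, Retnlg or Cxcr2 had 26.1 CPM in DT and 21.5 CPM in PBS. S100a9 followed, with 592 CPM in DT and 574 CPM in PBS for Csf1r cells and 272 CPM in DT and 253 CPM in PBS for C1qa cells. A UMI of S100a8 was found in 98.5% of DT and 99.5% of PBS neutrophils, at median depths of 2102 UMIs in DT and 2223 in PBS, and in 7.51% of DT and 6.37% of PBS NK cells, which should lack it, at 3416 in DT and 3405 in PBS. NK cells had the lowest levels of both genes, with 16 and 23 UMIs in DT and 22 and 24 UMIs in PBS, although in cells thinned to 1000 UMIs B cells were lowest for S100a8 in PBS. The intervals of C1qa and Treml4 cells overlapped in PBS for both genes, and those of T and B cells overlapped in DT for S100a9.

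**Figure D1:**
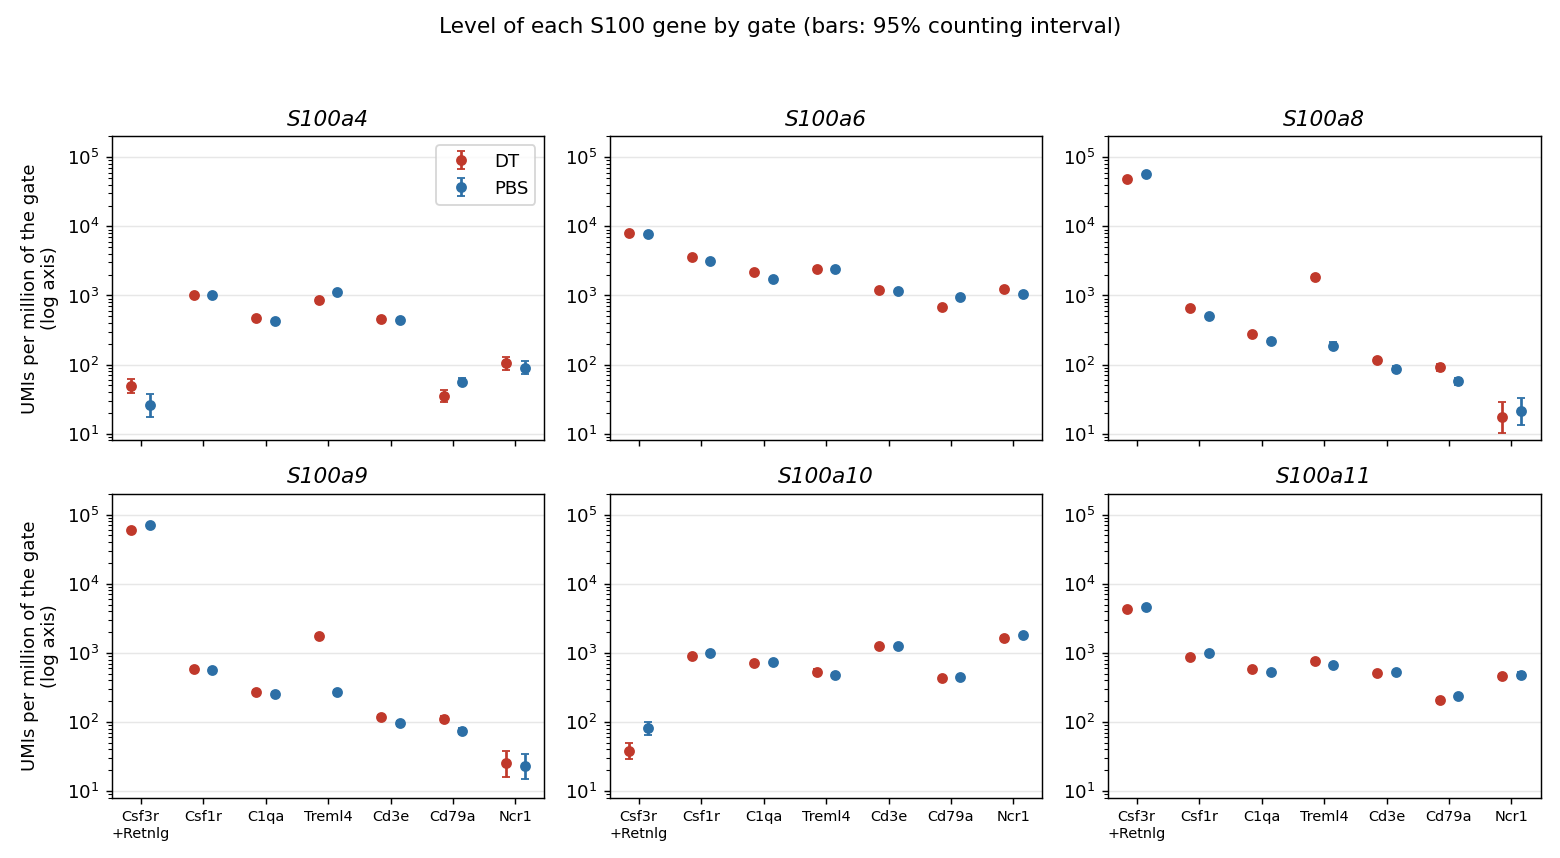
Level of each S100 gene (CPM, log axis) in 7 gates, with DT beside PBS and bars for the 95% counting interval. S100a8 and S100a9 peak in the neutrophil gate, S100a10 peaks in the NK gate and is lowest in neutrophils, and S100a4 is highest in the mononuclear gates.

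S100a8 and S100a9 ran together over cells and gates. In neutrophils thinned to 1000 UMIs, Spearman's rho between them was 0.90 over 579 DT cells and 0.88 over 391 PBS cells, while S100a6 and S100a8 gave 0.48 in DT and 0.41 in PBS. Across 14 points, 7 gates in each of the 2 libraries, Pearson's r of log2(CPM + 5) between S100a8 and S100a9 was 0.9985. These points share libraries and cells of 1 lung pool each, so the values only describe likeness. Among 7910 genes, the closest to S100a8 across the points were Csrnp1, Cmtm6, Cxcr2, Fbxl5 and Trem1, with r from 0.984 to 0.994, and S100a9 had the same 5. Cxcr2 is the chemokine receptor that draws neutrophils into tissue, and Trem1 amplifies myeloid inflammatory signals.

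S100a6 and S100a11 were highest in neutrophils too, but remained abundant elsewhere. S100a6 measured 7941 CPM in DT neutrophils and 7634 CPM in PBS neutrophils. Csf1r cells had 3573 CPM of S100a6 in DT and 3198 CPM in PBS, and Treml4 cells 2426 CPM in DT and 2382 CPM in PBS. C1qa cells came next, then T and NK cells, and B cells were lowest at 686 CPM in DT and 959 CPM in PBS. Few B cells supplied these values: 21 DT cells with at least 20 UMIs held 1599 of the 2147 S100a6 UMIs, and 58 such PBS cells held 4086 of 5059. In DT, S100a6 in NK cells (1236 CPM) and T cells (1214 CPM) had overlapping intervals. S100a11 measured 4308 CPM in DT neutrophils and 4613 CPM in PBS neutrophils, against 867 CPM in DT and 982 CPM in PBS for Csf1r cells. Its remaining gates lay between 205 CPM in B cells and 755 CPM in Treml4 cells in DT, and between 235 CPM and 673 CPM in the same gates in PBS. The intervals of T and NK cells overlapped in each library, as did those of C1qa and T cells in PBS. The genes closest to S100a11 were Gm12854 and Gm7665, processed pseudogenes that share 226 and 159 windows of 31 bases with its transcript, so reads could have been divided among them and S100a11 counts are uncertain. S100a4 shares 272 such windows with Gm42674, which has no column, so S100a4 counts are uncertain too. S100a10 shares 5 with Gm4714, also without a column.

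S100a10 had another order. It was highest in NK cells at 1666 CPM in DT and 1795 CPM in PBS, with a UMI in 95.8% of DT and 98.4% of PBS NK cells, against 4.85% of DT and 4.38% of PBS neutrophils. T cells followed with 1237 CPM in DT and 1258 CPM in PBS, and neutrophils were last with 38.5 CPM in DT and 81.1 CPM in PBS. Between them lay Csf1r cells (897 CPM in DT, 1009 CPM in PBS), C1qa cells (721 CPM in DT, 734 CPM in PBS), Treml4 cells (528 CPM in DT, 484 CPM in PBS) and B cells (428 CPM in DT, 451 CPM in PBS), the last 2 with overlapping intervals in PBS. Across the 14 points, S100a10 correlated with S100a8 at r = -0.87. S100a4 was highest in Csf1r cells in DT (1020 CPM, against 1017 CPM in PBS) and in Treml4 cells in PBS (850 CPM in DT, 1124 CPM in PBS). C1qa cells (473 CPM in DT, 425 CPM in PBS) and T cells (462 CPM in DT, 441 CPM in PBS) had overlapping intervals in each library, and NK cells had 105 CPM in DT and 90.6 CPM in PBS. Neutrophils and B cells were its lowest gates, neutrophils with 49.8 CPM in DT and 26.1 CPM in PBS and B cells with 35.4 CPM in DT and 56.3 CPM in PBS. The genes most like S100a4 over the points were Psme2, Psme2b, Mdh2, Ldhb and Dynlrb1 (r from 0.947 to 0.972), those most like S100a6 were Sgms2, Mmp8, Fem1c, Cd44 and Gcnt2 (0.967 to 0.972), and those most like S100a10 were Mrps24, Tmed9, Mrpl58, Ide and Erh (0.979 to 0.984). Mmp8 is a neutrophil collagenase and Cd44 the hyaluronan receptor of activated leukocytes.

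Across the whole library, 49.2% of S100a8 UMIs in DT and 46.3% in PBS lay in the neutrophil gate, and a further 43.3% in DT and 48.7% in PBS lay in mixed cells. Among the mixed cells, 308 in DT and 256 in PBS had Csf3r and Retnlg together with Csf1r or Treml4, at 33533 CPM of S100a8 in DT and 34192 CPM in PBS. S100a10, by contrast, had its largest share in T cells, 30.6% in DT and 30.2% in PBS. Library-wide S100a8 was 5329 in DT and 4381 CPM in PBS, while the neutrophil gate made up 10.1% of kept DT cells and 7.27% of kept PBS cells. In such whole-library levels, fewer cells of a type and less RNA per cell cannot be told apart.

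**Figure D2:**
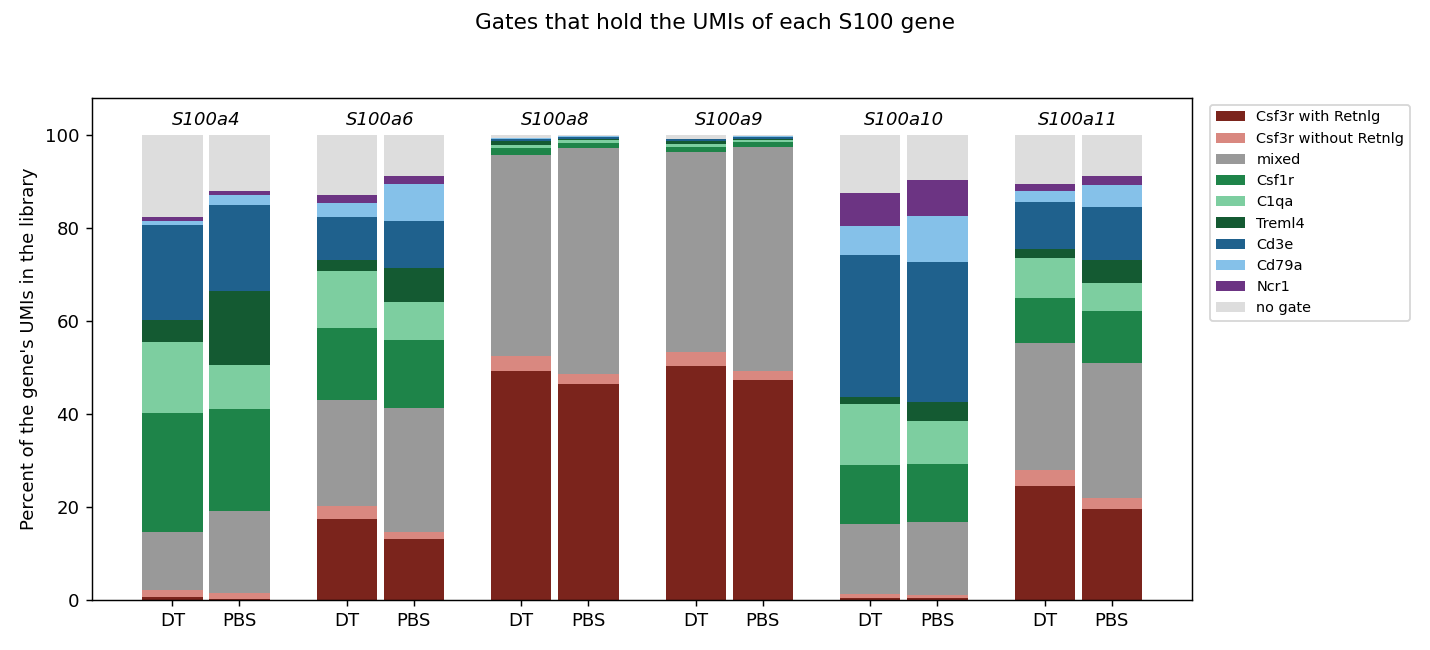
Share of each gene's UMIs (%) by gate, mixed cells and cells in no gate, DT beside PBS. For S100a8 and S100a9 nearly all UMIs sit in neutrophils and mixed cells, whereas S100a10 and S100a4 are spread over mononuclear and T cells.

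DT was then set against PBS within each gate. A gene was called past the fold when it had at least 100 UMIs over both libraries, differed at least 1.5-fold after 5 CPM was added to both sides, and had a counting interval that left out 1. Ratios are DT over PBS. In neutrophils, 5.18% of 2954 genes met that rule, and 2 of the 6 members did. The median log2 ratio was -0.17 over the members and 0.05 over all tested genes. S100a4 rose, with 49.8 CPM in DT and 26.1 CPM in PBS (ratio 1.91, interval 1.23 to 3.03), and S100a10 fell, with 38.5 CPM in DT and 81.1 CPM in PBS (ratio 0.475, interval 0.335 to 0.668). Both rest on few molecules. S100a4 had 75 UMIs in 16 DT cells, 25 of them in 1 cell, and 29 UMIs in 14 PBS cells. S100a10 had 58 UMIs in 29 DT cells and 90 UMIs in 18 PBS cells, 37 of them in 1 cell. S100a4 changed sign when the 5% deepest cells were left out (log2 ratio -0.22), as did S100a10 (0.36). In male-called neutrophils S100a4 was 49.9 in DT and 46.2 CPM in PBS, from 15 and 20 UMIs, and was not past the fold.

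The abundant neutrophil members differed by less than the fold. S100a8 had a ratio of 0.852 (interval 0.843 to 0.861) and S100a9 of 0.829 (0.821 to 0.837), and S100a6 and S100a11 had 1.04 and 0.934. In male-called neutrophils, 114 in DT and 118 in PBS, S100a8 was 51580 in DT and 50502 CPM in PBS, and S100a9 was 62631 in DT and 61659 CPM in PBS, so the lower level seen over all neutrophils was not seen there. Neutrophils carrying Ccl3, a chemokine of activated cells, had less of both genes than those without it. With Ccl3, S100a8 was 35352 in DT and 47478 CPM in PBS, and without it 51635 CPM in DT and 59715 CPM in PBS. Cells with Csf3r but no Retnlg, 349 in DT and 132 in PBS, had a UMI of S100a8 in 65.6% of DT and 71.2% of PBS cells. Of the genes tested there, 13.7% were past the fold, and among the members only S100a4 was, at 220 CPM in DT and 407 CPM in PBS (169 UMIs in 28 DT cells and 157 UMIs in 15 PBS cells). Among male-called cells of that gate its log2 ratio was 0.33, the other sign. Markers of Csf1r mononuclear cells, where S100a4 was high, moved with it, at 2366 CPM in DT and 7289 CPM in PBS for 7 genes, of which 1 was at 0 in each library, and their part in the result was not tested.

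**Figure D3:**
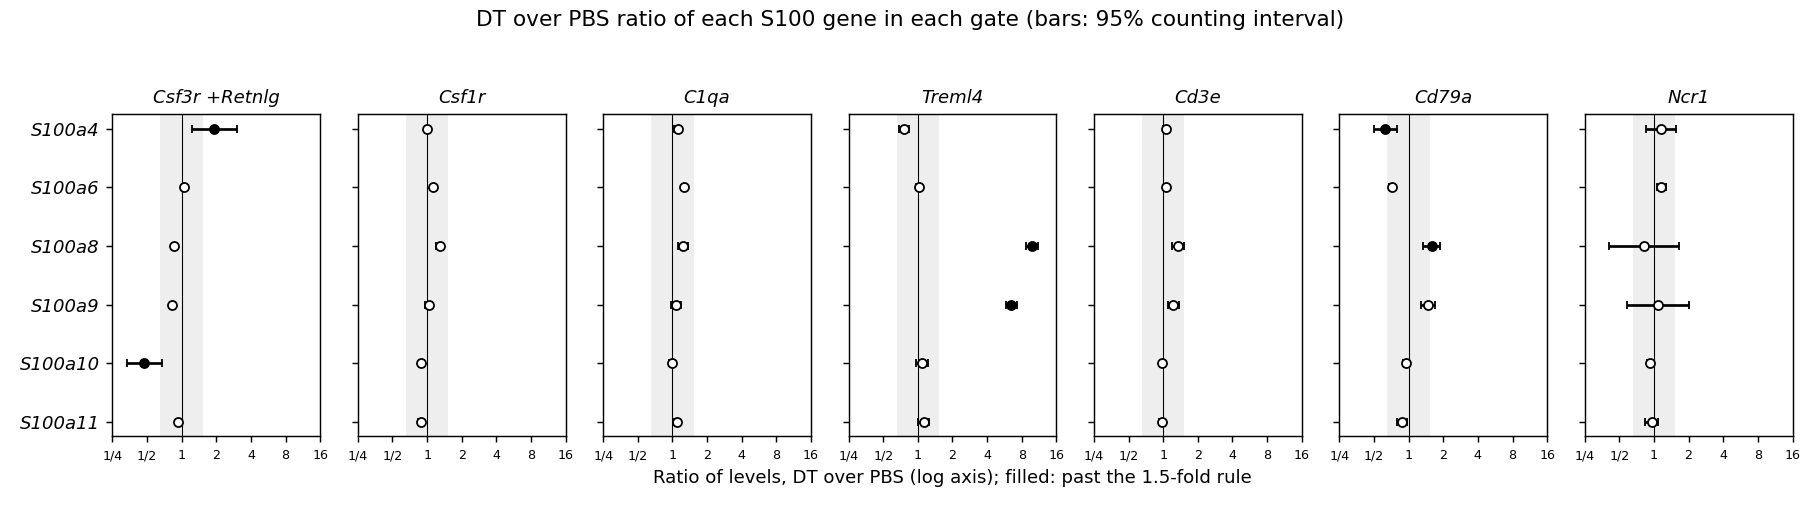
Ratio of levels, DT over PBS, for each S100 gene and gate (log axis), with 95% counting intervals, a grey band for ratios under 1.5-fold and filled points past the fold. Most points lie in the band, and S100a8 and S100a9 in the Treml4 gate lie to the right of it at 9.80 and 6.49.

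In the Treml4 gate the calprotectin genes were far higher in DT. S100a8 measured 1848 CPM in DT and 189 CPM in PBS (ratio 9.80, interval 8.71 to 11.04), and S100a9 measured 1742 CPM in DT and 268 CPM in PBS (ratio 6.49, interval 5.85 to 7.21). These were 2 members past the fold where 14.0% of 3840 genes were, with a median log2 ratio of 0.15 over the members and -0.03 over all tested genes. The other members were within the fold, among them S100a6 at a ratio of 1.02. The excess lay in few cells: 16 of 142 DT cells with at least 20 S100a8 UMIs held 1083 of 1224 UMIs, and 5 of 287 PBS cells held 263 of 366. Of those 16 DT cells, 15 carried Cxcr2, 15 Il1r2 and 16 Hdc, and all 5 PBS cells carried each of these neutrophil genes, against Cxcr2 in 11.1%, Il1r2 in 30.2% and Hdc in 25.4% of the remaining DT cells and 6.38%, 13.8% and 8.87% of the remaining PBS cells.

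The neutrophil marker list moved with S100a8 in that gate. Its 9 genes other than S100a8 and S100a9 summed to 1553 CPM in DT and 412 CPM in PBS, with none at 0. Of a second list of 11 neutrophil genes, which overlaps the first, 4 could be tested in this gate, and all 4 rose: Hdc, Il1r2, Cxcr2 and Wfdc21. The gate's own nonclassical monocyte markers ran the other way, at 1191 CPM in DT and 1862 CPM in PBS for 7 genes, with Ace, Adgre4, Eno3 and Spn past the fold and lower in DT. In the Treml4 cells with no UMI of Csf3r, Retnlg or Cxcr2, 67 in DT and 166 in PBS, S100a8 was 56.7 in DT and 21.2 CPM in PBS, from 18 and 25 UMIs (log2 ratio 1.23, interval of the ratio 1.37 to 5.10), and S100a9 was 59.8 in DT and 23.8 CPM in PBS, from 19 and 28 UMIs (1.17, 1.33 to 4.67). Both lay above 1.5-fold but under the minimum of 100 UMIs, so that neither could be called. Treml4 cells made up 2.41% of kept DT cells at a median of 3179 UMIs and 5.08% of kept PBS cells at 6291. The size depended on the gate: with gate genes at 2 UMIs the log2 ratio of S100a8 was 1.08 and that of S100a9 0.77, against 3.26 and 2.68 as gated here, and with cells of several gates kept in each gate they were 0.53 and 0.50 and not past the fold. In male-called cells, 21 in DT and 146 in PBS, they were 3.04 and 2.46. The part that neutrophil RNA or depth had in the result was not tested.

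**Figure D4:**
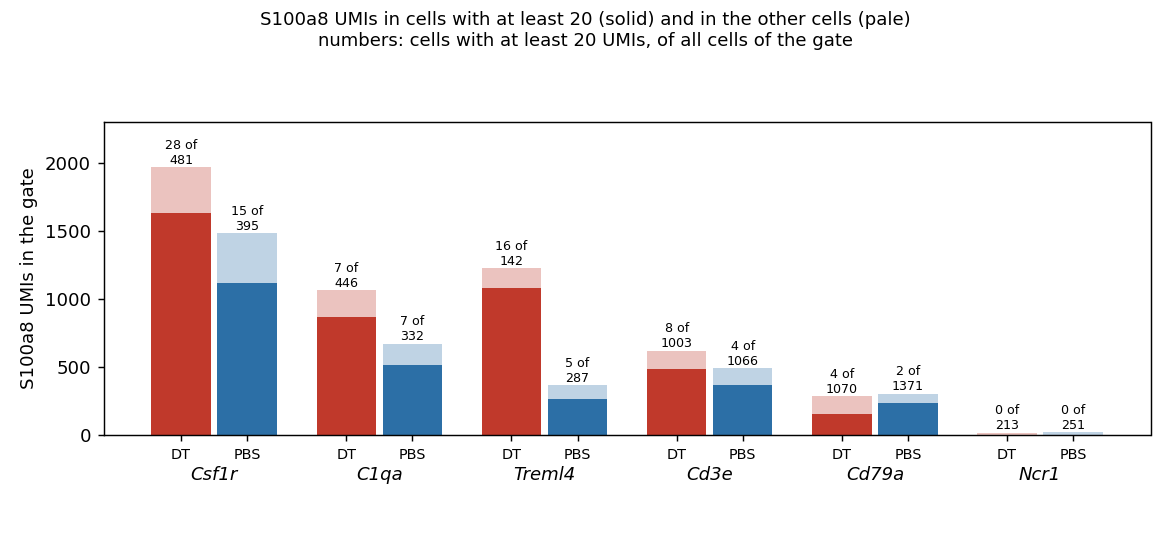
UMIs of S100a8 in the 6 gates other than neutrophils, parted into cells with at least 20 UMIs (solid) and the remaining cells (pale), DT beside PBS, with the number of such cells of all cells above each bar. In the Treml4 gate, 16 DT cells and 5 PBS cells hold most of the molecules.

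In Csf1r cells no member was past the fold, where 3.26% of 6586 genes were, and in C1qa cells none was, where 2.04% of 7053 were. Among Csf1r cells with Ly6c2 (207 in DT, 186 in PBS), S100a8 alone was, at 556 CPM in DT and 263 CPM in PBS. The ratio was 2.11 (interval 1.87 to 2.39), and the share over all genes was not computed there. In DT, 7 of these cells with at least 20 UMIs held 687 of 762 S100a8 UMIs, and in PBS 4 held 313 of 395. S100a6 in C1qa cells, at 2161 CPM in DT and 1719 CPM in PBS, had a ratio of 1.26. Macrophages with Gpnmb, a gene of lipid-laden macrophages, had less S100a6 (1239 CPM in DT, 1278 CPM in PBS) than those with neither Gpnmb nor Marco (2423 CPM in DT, 1810 CPM in PBS). In Csf1r cells with no Csf3r, Retnlg or Cxcr2 (307 in DT, 246 in PBS), 4.43% of 5351 genes were past the fold, and so were S100a8, at 124 in DT and 53.0 CPM in PBS (log2 ratio 1.15), and S100a9, at 42.9 in DT and 23.9 CPM in PBS (0.73). Sftpc, the surfactant gene of alveolar type 2 cells, was also far higher in DT Csf1r cells (1023 CPM, against 7.48 CPM in PBS), and its part in the result was not tested. By sex call, S100a8 in male-called C1qa cells was 23.5 CPM in DT (13 UMIs in 59 cells) and 333 CPM in PBS (581 UMIs in 155 cells), and in female-called ones 278 CPM in DT (690 UMIs in 234 cells) and 34.0 CPM in PBS (9 UMIs in 37 cells). S100a8 and S100a9 were thus both lower in DT past the fold in male-called cells, where 7.69% of 3458 genes were past it, and both higher in female-called cells, where 15.8% of 4033 were.

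No member was past the fold in T cells, where 1.49% of 8722 genes were. S100a8 stood at 116 CPM in DT and 86.1 CPM in PBS, S100a6 at 1214 CPM in DT and 1157 CPM in PBS, and S100a10 at 1237 CPM in DT and 1258 CPM in PBS. Few T cells supplied most of the S100a8 UMIs. In DT, 8 of 1003 cells had at least 20 UMIs and held 78.2% of them, and in PBS 4 of 1066 held 75.2%. Hdc was carried by 7 of those 8 DT cells and by all 4 PBS cells. The sex calls parted the T cell levels too, and the part of those few cells in the values by sex call was not tested. S100a8 in male-called T cells was 9.30 CPM in DT (5 UMIs in 105 cells) and 118 CPM in PBS (408 UMIs in 555 cells), and in female-called ones 97.0 CPM in DT (315 UMIs in 507 cells) and 15.5 CPM in PBS (5 UMIs in 70 cells). All members but S100a6 fell past the fold in male-called T cells, where 8.26% of 5278 genes were past it, while S100a8 and S100a9 rose in female-called ones, where 16.3% of 5081 were. T cells with Foxp3, the regulatory T cell factor (124 in DT, 115 in PBS), were set beside those with Trdc, the constant region of the gamma delta T cell receptor (91 in DT, 76 in PBS), and those with neither (788 in DT, 875 in PBS), and the Foxp3 group had the most S100a4, S100a6, S100a10 and S100a11. In Foxp3 cells S100a6 was 2068 in DT and 2897 CPM in PBS, S100a10 was 2433 in DT and 2903 CPM in PBS, and S100a4 was 752 in DT and 895 CPM in PBS. S100a8 and S100a9 were past the fold there, where 6.41% of 2575 genes were, with S100a8 at 281 CPM in DT and 23.6 CPM in PBS. The 9 neutrophil markers summed to 331 CPM in DT and 59.0 CPM in PBS, with Ly6g at 0 in DT and Cxcr2, Mmp8, Ly6g and Lcn2 at 0 in PBS. Il1r2 alone supplied 139 CPM of that in DT and 41.3 CPM in PBS. It was also found in 19.0% of DT and 9.57% of PBS Foxp3 cells with fewer than 20 S100a8 UMIs. Of the 228 DT UMIs of S100a8, 197 lay in 3 cells. In Foxp3 cells with no Csf3r, Retnlg or Cxcr2, S100a8 was 27.5 in DT and 24.7 CPM in PBS, from 20 and 16 UMIs. S100a9 in those cells was 49.5 in DT and 21.6 CPM in PBS, from 36 and 14 UMIs (log2 ratio 1.04), and both genes had too few UMIs there for a call.

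In T cells with neither Foxp3 nor Trdc, S100a6 was 1055 in DT and 903 CPM in PBS, S100a4 was 414 in DT and 386 CPM in PBS, S100a10 was 1027 in DT and 1035 CPM in PBS, and S100a11 was 467 in DT and 500.3 CPM in PBS. In Trdc cells S100a6 was 1117 in DT and 1157 CPM in PBS, with an interval that overlapped that of the group with neither in DT and lay above it in PBS. S100a10 in Trdc cells was 974 in DT and 1059 CPM in PBS, and S100a4 was 364 in DT and 307 CPM in PBS. None of the 4 members that could be tested in Trdc cells was past the fold, where 7.08% of 1215 genes were, and none of 6 in the group with neither, where 1.80% of 7955 were.

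**Figure D5:**
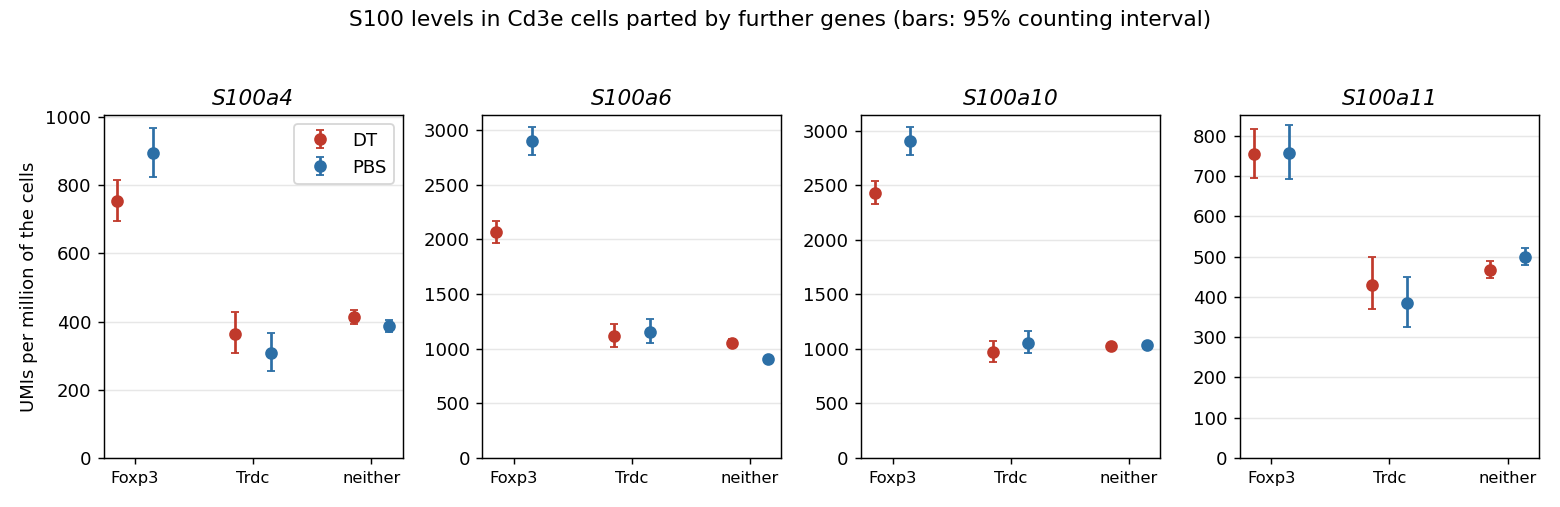
Level of S100a4, S100a6, S100a10 and S100a11 (CPM) in T cells with Foxp3, with Trdc but no Foxp3, or with neither, DT beside PBS, with 95% counting intervals. All 4 genes are highest in the Foxp3 group in both libraries.

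In B cells, 5.15% of 7493 genes were past the fold, and S100a8 rose while S100a4 fell. S100a8 measured 91.0 CPM in DT and 57.4 CPM in PBS (ratio 1.58, interval 1.34 to 1.87), and S100a4 measured 35.4 CPM in DT and 56.3 CPM in PBS (ratio 0.630, interval 0.502 to 0.785). Few B cells supplied most of the S100a8 UMIs. In DT, 4 of 1070 cells with at least 20 UMIs held 153 of 285, and in PBS 2 of 1371 held 232 of 303. All of these cells carried Hdc. Neutrophil markers moved with S100a8, at 125 CPM in DT and 59.0 CPM in PBS for 9 genes with Ly6g at 0 in both. Other markers differed there as well, and their part in the results was not tested. A list of 5 epithelial genes summed to 1086 CPM in DT and 89.3 CPM in PBS. In DT, 1 of them reached 50 CPM and 2 were at 0. Scgb1a1, also in that list, was lower in DT, as given above. The 4 erythroid and platelet genes summed to 338 CPM in DT, with 1 at 0, and 6.82 CPM in PBS. The 6 B cell genes summed to 9285 CPM in DT and 14071 CPM in PBS. In B cells with no Csf3r, Retnlg or Cxcr2, S100a8 was 17.5 in DT and 10.4 CPM in PBS (interval of the ratio 1.12 to 2.51), a log2 ratio of 0.54 once 5 CPM was added, against 0.62 over all B cells, and it was not past the fold. The log2 ratio of S100a8 in B cells turned to -0.0548 in male-called cells and to -0.34 with cells of several gates kept. In female-called cells it was 2.81, at 86.7 CPM in DT and 8.11 CPM in PBS, the latter from 5 UMIs. It stayed past the fold with gate genes at 2 UMIs (1.17), a mean per cell (1.14) and thinned cells (1.22). It did not with a trimmed mean (0.51), a median of ratios (0.51), 20 CPM added (0.52), log2 means (0.23) or the deepest cells left out (0.40). In B cells with no Csf3r, Retnlg or Cxcr2, S100a4, at 24.0 in DT and 59.0 CPM in PBS, and S100a6, at 612 in DT and 988 CPM in PBS, were past the fold, where 5.00% of 7255 genes were. Across 17 settings the log2 ratio of S100a4 in B cells ran from -1.90 to -0.0618. It was not past the fold with each gate alone (-0.49), per cell (-0.17), thinned (-0.40), with 20 CPM added (-0.46), on log2 means (-0.0618) or in male-called cells (-0.45). S100a4 in male-called B cells was 39.1 in DT and 55.2 CPM in PBS, and in female-called ones 59.8 in DT and 201 CPM in PBS. S100a6 in male-called B cells was 1071 in DT and 814 CPM in PBS, and in female-called ones 973 in DT and 2783 CPM in PBS. In NK cells 3.14% of 3124 genes were past the fold and none of the 4 members tested was, S100a8 and S100a9 having too few UMIs.

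Stray neutrophil RNA in lymphocytes, which are not the usual source of calprotectin, was read from S100a8, S100a9 and a list of other neutrophil genes. The values are pooled over all cells of a gate, although few T and B cells held most of their S100a8 UMIs, as given above. S100a8 in T cells was 0.241% of its neutrophil level in DT and 0.152% in PBS, in B cells 0.188% in DT and 0.101% in PBS, and in NK cells 0.0365% in DT and 0.0377% in PBS. Of the 11 other neutrophil genes, 8 in DT and 9 in PBS were used. Retnlg and genes with under 100 UMIs in the neutrophil gate of a library were left out. The genes used had medians of 0.306% in DT and 0.142% in PBS for T cells, and 0.488% in DT and 0.0910% in PBS for B cells. Without cells holding a Csf3r or Retnlg UMI, S100a8 in T cells was 0.0601% in DT and 0.0312% in PBS. The genes used from that list ran from 0.126% to 4.40% in DT T cells and from 0% to 2.27% in PBS T cells. S100a8 and S100a9 lay within that range. Its top was Il1r2 in each library, followed by Hdc at 1.08% in DT and Cxcr2 at 0.432% in PBS. Retnlg, which was left out, stood at 0.0286% in DT and 0.0357% in PBS T cells. The calprotectin genes had a ratio of S100a8 to S100a9 UMIs of 0.984 in DT and 0.893 in PBS T cells, against 0.813 in DT and 0.791 in PBS neutrophils. In T cells without a Csf3r or Retnlg UMI it was 0.587 in DT, with 247 UMIs of S100a9, and 0.821 in PBS, with 117.

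Genes that work with the S100 proteins were counted in the same gates. Over all tested genes, 14.0% were past the fold in Treml4 cells and 13.7% in Csf3r cells without Retnlg. The share was 5.18% in neutrophils, 5.15% in B cells, 3.26% in Csf1r cells and 1.49% in T cells. The calls below, from short lists, are to be read beside these shares. Of 8 binding partners, 7 could be tested in neutrophils and 1 was past the fold. Ahnak, a scaffold bound by the S100a10 and annexin A2 complex, fell in neutrophils (36.5 CPM in DT, 65.8 CPM in PBS), in Treml4 cells (211 CPM in DT, 358 CPM in PBS) and in Csf3r cells without Retnlg (164 CPM in DT, 277 CPM in PBS), and Cacybp fell in B cells, while Anxa2 was past the fold in no gate. Of 9 receptors and their adaptors, Cd14, which passes ligands to Toll-like receptor 4, rose in Csf1r cells (661 CPM in DT, 280 CPM in PBS), in Treml4 cells (441 CPM in DT, 198 CPM in PBS) and in Csf3r cells without Retnlg (2247 CPM in DT, 1041 CPM in PBS), and the scavenger receptor gene Cd36 rose in Treml4 cells (90.6 CPM in DT, 58.2 CPM in PBS). None of 6 NADPH oxidase genes was past the fold in neutrophils, but Cybb, the catalytic subunit, fell in Treml4 cells (771 CPM in DT, 1296 CPM in PBS) and in Csf3r cells without Retnlg (143 CPM in DT, 303 CPM in PBS), where Ncf1, a cytosolic subunit, rose (615 CPM in DT, 378 CPM in PBS). Of 7 regulators, 5 could be tested in neutrophils, and Cebpd alone fell there (748 CPM in DT, 1145 CPM in PBS), while Cebpb rose in T cells (192 CPM in DT, 103 CPM in PBS) and in Csf3r cells without Retnlg (6115 CPM in DT, 3758 CPM in PBS), and Cebpa rose in Treml4 cells (103 CPM in DT, 64.9 CPM in PBS). Ngp, a granule gene of immature neutrophils, fell in neutrophils, with 32.5 CPM in DT and 132 CPM in PBS. Of 11 further genes, S100 family members and the S100-binding protein S100pbp, 7 had a column, but only 1 or 2 in each gate had enough UMIs to be tested, and none of those was past the fold.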

How the data were processed

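Leukocyte libraries of 1 DT and 1 PBS group were analysed. The authors deposited log2 values of CPM plus 1, with a column for each of 16184 genes and a row for each cell. The submitters' processing notes name STAR, Seurat, Partek and the mm10 genome, while settings, versions and annotation were not given in the sources used here. Since the plan had assumed counts, values were taken off the log scale and scaled in each cell by the lowest one, and 100% of those above 0 came out as whole UMIs, within 1%. Kept cells had 200 or more genes, 500 or more UMIs and no more than 10% of UMIs from mitochondrial genes. Cells in several gates were set aside in place of a doublet caller, which was not run. UMIs were summed per gate. Shares and UMI counts have exact 95% intervals (Clopper-Pearson and Poisson, conditional binomial for ratios), for counting error only. Genes named were the 6 members, the listed partner, receptor, oxidase, regulator and neutrophil genes, and the 5 genes most like each member. The members and lists were chosen with earlier results of these data known. A planned T cell group is not reported here, and its cells stay with the remaining T cells. Cells were thinned to 1000 UMIs where depth mattered. The steps were tested on simulated data. Tools were Python 3.11.15, numpy 2.4.6, scipy 1.17.1, pandas 2.3.3 and matplotlib 3.10.9. Alternatives varied the gates, filters, scaling, cell weights, depth, added CPM, stray RNA and sex-called cells. Gates of Csf3r with Retnlg that also hold Csf1r or Treml4, gates without Csf3r, Retnlg or Cxcr2, and the Treml4 gate with Csf1r were added after seeing the data. Gene coordinates come from GENCODE M21, and promoters with their start sites from RefSeq (GRCm38.p6).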

Additional observations from a re-analysis of the deposited data

Results flagged for a closer look

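Several S100 results stood apart between gates or lay outside them, and none of these differences was tested. S100a4 had a log2 ratio of DT over PBS of 0.82 in neutrophils, opposite in sign to the Treml4 and Cd79a gates, and of -0.60 in B cells, opposite to neutrophils and C1qa cells. S100a8 had 3.26 in Treml4 cells and 0.62 in B cells, and S100a9 had 2.68 in Treml4 cells, each opposite in sign to neutrophils. Cells in no gate, 926 in DT and 698 in PBS, enter the whole-library levels and shares above but none of the comparisons within gates. S100a8 there was 302 in DT and 144 CPM in PBS (log2 ratio 1.05), and S100a9 was 386 in DT and 146 CPM in PBS (1.38).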

How the results depend on the processing

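Each of 54 ratios, 6 members in 9 gates, was recomputed under 15 settings, and 6 to 42 of them under 4 more that reach fewer gates or cells. Of 42 ratios in the 7 gates, 6 were past the fold, against 10 with gate genes at 2 UMIs, 3 with each gate taken alone and 13 in male-called cells. The share over all genes was not computed at 2 UMIs or with each gate alone. In male-called cells it was 7.69% for C1qa cells and 8.26% for T cells, against 2.04% and 1.49% without the sex call. The Treml4 ratios of S100a8 (3.26) and S100a9 (2.68) were 1.08 and 0.77 at 2 UMIs. With 10% of the whole-library profile subtracted as stray RNA they were 8.20 and 7.94. S100a8 in B cells and both genes in Foxp3 cells then came to 0 and were not past the fold. A level under the subtracted amount was set to 0, as in PBS Treml4 cells and in those B and Foxp3 cells of each library. The S100a8 ratio in neutrophils (-0.23) was -0.0895 with each gate alone, -0.26 with a trimmed mean, -0.28 with a median of ratios, -0.27 with a total without the members, mitochondrial and ribosomal genes, -0.20 with a mean per cell, -0.20 thinned, -0.39 as a difference of log2 means, -0.18 without the 5% deepest cells, 0.0305 in male-called cells and -0.12 with Csf1r and Treml4 allowed. S100a9 (-0.27) was -0.25 at 2 UMIs and then, over the same settings except thinning, -0.12, -0.30, -0.31, -0.31, -0.24, -0.32, -0.23, 0.0226 and -0.16. S100a4 in neutrophils (0.82) turned to -0.40 at 2 UMIs, -0.46 with each gate alone, -0.26 per cell, -0.0403 thinned, -0.0582 on log2 means, -0.22 without the deepest cells and -0.91 in the wider gate, and S100a10 turned to 0.23 with each gate alone, 0.0365 on log2 means and 0.36 without the deepest cells. S100a8 in B cells turned to -0.34 with each gate alone and -0.0548 in male-called cells, and S100a8 in Foxp3 cells to -2.39 and S100a4 without Retnlg to 0.33 in male-called cells. That Foxp3 value rests on 0 UMIs in 11 DT cells and 10 UMIs in 68 PBS cells, too few to read a sign from. The causes were not tested. No value was given for female-called neutrophils, with 3 cells in PBS. No paired analysis was possible because each group is 1 library. S100a8 and S100a9 had too few UMIs for a call in NK cells, at 16 and 23 UMIs in DT and 22 and 24 UMIs in PBS. The median depth of NK cells was 3416 UMIs in DT and 3405 in PBS.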
